A study of Mus musculus with 6 samples.

Results

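The BRINP genes Brinp1, Brinp2 and Brinp3 and the astrotactin genes Astn1 and Astn2 were followed in newborn mouse cortex with and without a Zbtb20 transgene. They were taken as every probe set of the array whose only gene symbol in the platform annotation is one of these names. This gave 5 probe sets, 1 for each gene, of 45037 tested. The genes were chosen with the genotype differences of these arrays known, so their differences are a description, and nothing about the family is read from how many of them differed.

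The study compared wildtype mice with D6/Zbtb20S transgenic mice, both on the C57BL/6 background, at postnatal day 1. The subiculum and the retrosplenial cortex were dissected together from transgenic animals and their wildtype littermates. In the transgenic animals these areas are labelled as transformed to CA1, a field of the hippocampus. Each genotype had 3 arrays, and 7 animals were pooled for each, so the spread between arrays is the spread between pools. Nothing in the labels says if a genotype's pools were from different litters. Zbtb20 is a zinc finger repressor of hippocampal pyramidal neurons, and D6 is, as background, a regulatory element of the Dach1 gene that is active in the developing cortex and hippocampus.

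BRINP stands for BMP and retinoic acid inducible neural-specific protein. The BRINP proteins are made mainly by neurons, enter the secretory pathway, and were first described as slowing the cell cycle of neural precursors. Astrotactin-1 is a neuronal membrane protein that lets migrating neurons hold on to radial glial fibres. Astrotactin-2 binds astrotactin-1 and controls how much of it stands at the cell surface, and later in life it moves synaptic adhesion proteins off the surface. Both families carry a membrane attack complex and perforin (MACPF) domain, the fold of the pore-forming complement proteins.

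Array medians lay between 3.83 and 3.97 on the log2 scale, and Pearson's r over all probe sets was 0.9853 to 0.9900 between genotypes and at least 0.9922 within one. Of 9 Zbtb20 probe sets, 1 passed an adjusted p under 0.05 in limma (1422064_a_at, log2 difference 2.33 ± 0.37 SE), where wildtype replicates 1, 2 and 3 read 6.44, 5.84 and 7.64, so that replicate 3 stood apart. The brightest Zbtb20 probe set, 1437598_at, did not pass (-0.14 ± 0.24), and the other 8 ranged from -0.37 to 2.33. The pyramidal neuron gene Neurod6 had a log2 signal of 10.1 in wildtype and 9.95 in transgenic tissue, and all 7 pyramidal markers examined exceeded the array median on at least 1 array. Neurod6 did not pass, but 2 of the 7 were higher and 2 lower in transgenic tissue, against 4.06% and 3.64% of all genes.

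Brinp3 had by far the largest difference of the family. Its probe set, 1434993_at, read a log2 signal of 5.89, 6.24 and 6.15 on wildtype arrays 1, 2 and 3, and 3.44, 3.22 and 3.70 on the transgenic arrays. Every wildtype array exceeded the median of its array, every transgenic array was under it, and the lowest wildtype array stood 2.20 above the highest transgenic one. The group means were 6.09 ± 0.18 (SD, n = 3) and 3.45 ± 0.24 (SD, n = 3), a difference of -2.64 ± 0.14 (SE of the moderated fit), or 6.25-fold lower in transgenic tissue. This was the 15th largest fall of the 45037 probe sets. The deposited method compresses changes near the floor of the array, and the transgenic signal was under the array median, so the fold may be too small.

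Brinp1 was also lower in transgenic tissue, from a higher signal and by less. Its probe set, 1417318_at, read 7.02, 7.24 and 7.08 on wildtype arrays 1, 2 and 3, and 5.69, 5.60 and 5.96 on the transgenic arrays. The groups did not overlap, with a gap of 1.06 between the nearest arrays, and all 6 arrays exceeded their array median, unlike Brinp3. The means were 7.11 ± 0.11 (SD, n = 3) and 5.75 ± 0.19 (SD, n = 3), a difference of -1.36 ± 0.11 (SE), or 2.57-fold lower. It ranked 138th among the falls of all probe sets. In a bulk sample, fewer cells that make a transcript and less of it per cell cannot be told apart, which holds for every difference given here.

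Brinp2 did not differ beyond the spread of the arrays. On 1438706_at wildtype arrays 1, 2 and 3 read 4.72, 4.40 and 4.36, and transgenic arrays read 4.36, 4.44 and 4.43. The groups overlapped: wildtype replicate 1 stood above the rest, and the other wildtype arrays were within the range of the transgenic ones. The difference was -0.08 ± 0.11 (SE), with a 95% interval from -0.33 to 0.16, and its sign turned to 0.03 without wildtype replicate 1. All arrays exceeded their median, by 0.46 to 0.89, so the signal was modest.

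Astn1 had the steadiest signal of the 5. On 1418615_at the wildtype signals were 8.015, 7.999 and 8.084, and those of transgenic tissue 8.086, 8.060 and 8.102. The groups overlapped, and the difference was 0.05 ± 0.07 (SE), with a 95% interval from -0.12 to 0.22. A shift as large as that of Brinp1 or Brinp3 is outside this interval.

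Astn2 was read close to the floor of the array. On 1450309_at the wildtype arrays were at 2.30, 2.43 and 2.25 and their transgenic counterparts at 1.74, 1.90 and 1.92. The groups did not overlap, but every array was under its median, and 5 of the 6 were under the lower quartile of their array. The difference was -0.48 ± 0.09 (SE), or 1.39-fold lower. It no longer passed an adjusted p under 0.05 when wildtype replicate 2 was left out (-0.43), when transgenic replicate 1 (-0.42) or transgenic replicate 2 (-0.50) was, or with an ordinary linear model. Whether the probe set detected Astn2 transcripts in this tissue was not tested, since detection calls were not used here.

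**Figure D1:**
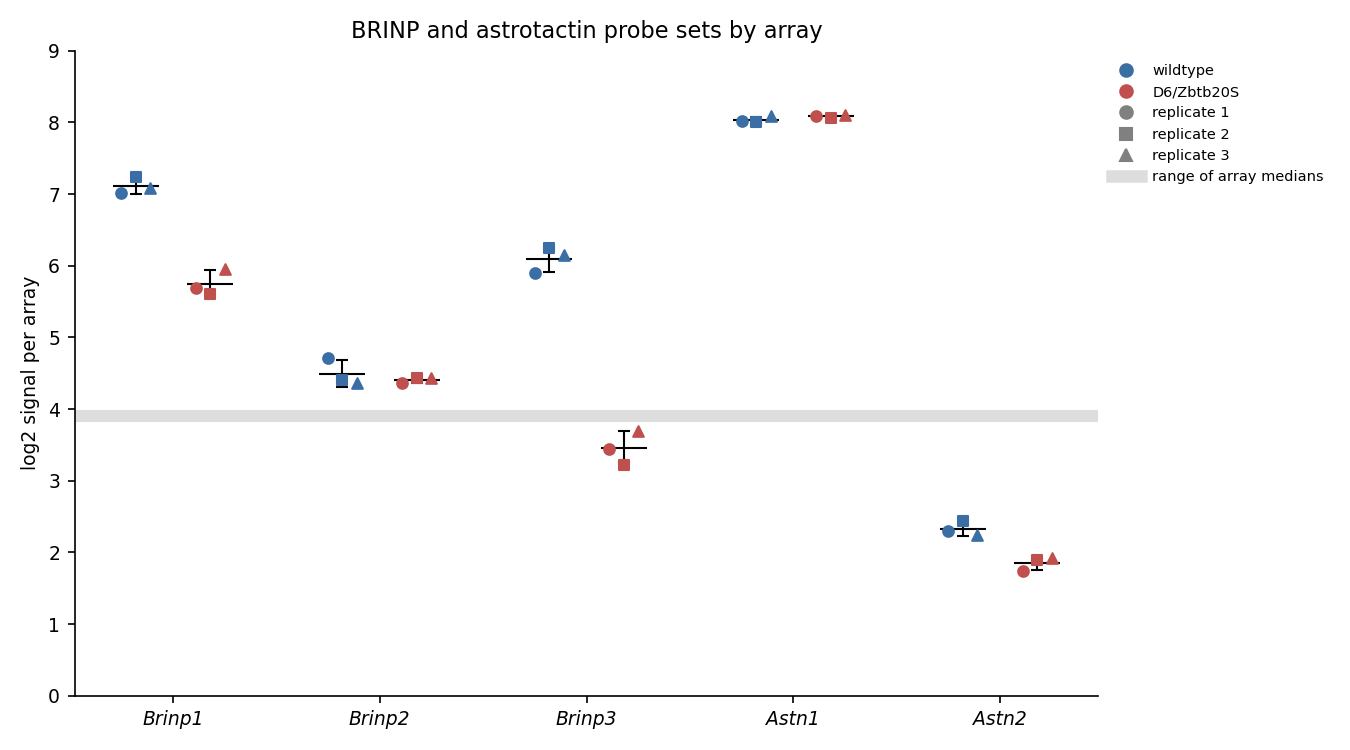
Log2 signal (vertical axis) of the 5 probe sets on each array, wildtype in blue and D6/Zbtb20S in red, with marker shape for the replicate, a bar for the group mean and whiskers for the SD (n = 3). Brinp3 passes from above to below the band of array medians (3.83 to 3.97), Brinp1 falls but stays above it, Brinp2 and Astn1 overlap, and Astn2 is below the band in both genotypes.

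Read against all probe sets, 3 of the 5 passed an adjusted p under 0.05 in the limma fit over the whole array, all of them lower (Brinp3, Brinp1 and Astn2), against 2.11% of all probe sets called lower and 5.52% called in either direction. The same 3 had arrays that did not overlap between genotypes, against 23.7% of all probe sets in either direction and 11.8% lower. The median difference of the 5 was -0.48, beside -0.02 over all probe sets. As the genes were chosen on this contrast, these shares are printed for scale only. Brinp1 missed the threshold with an ordinary linear model, in which 200 of all probe sets passed in place of 2484, while Brinp3 passed in all 13 alternatives tried. With wildtype replicate 3 left out, the array that stood apart on Zbtb20, the differences were -2.62 for Brinp3, -1.38 for Brinp1 and -0.52 for Astn2, and all of them still passed.

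**Figure D2:**
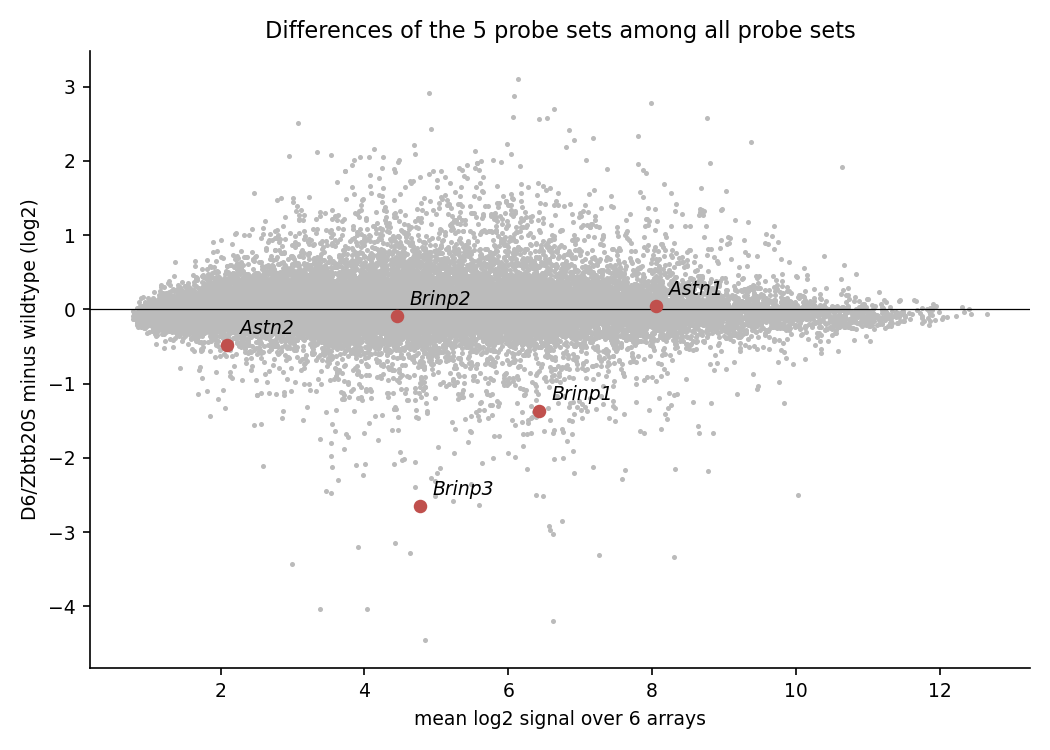
Difference between genotypes (vertical axis, log2, D6/Zbtb20S minus wildtype) against the mean log2 signal over the 6 arrays (horizontal axis) for all 45037 probe sets in grey, with the 5 BRINP and astrotactin probe sets in red. Brinp3 (-2.64) and Brinp1 (-1.36) are at the lower edge of the cloud, while Brinp2 (-0.08) and Astn1 (0.05) are inside it.

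The stretches before the transcription starts of Brinp1 and Brinp3, which were both lower, are printed beside that of Astn1, which was not, so that the letters can be compared. They are the 250 bases before the RefSeq start in GRCm38.p6, at chr4:68954398-68954647 (minus strand) for Brinp1, at chr1:146495379-146495628 (plus strand) for the first of 3 Brinp3 starts, and at chr1:158362054-158362303 (plus strand) for Astn1. Capitals mark matches to any of 6 motifs searched on both strands.

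Brinp1: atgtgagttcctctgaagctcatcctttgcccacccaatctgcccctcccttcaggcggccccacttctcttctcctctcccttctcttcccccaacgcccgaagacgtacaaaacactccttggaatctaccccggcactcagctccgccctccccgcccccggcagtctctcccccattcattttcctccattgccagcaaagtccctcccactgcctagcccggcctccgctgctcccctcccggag

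Brinp3: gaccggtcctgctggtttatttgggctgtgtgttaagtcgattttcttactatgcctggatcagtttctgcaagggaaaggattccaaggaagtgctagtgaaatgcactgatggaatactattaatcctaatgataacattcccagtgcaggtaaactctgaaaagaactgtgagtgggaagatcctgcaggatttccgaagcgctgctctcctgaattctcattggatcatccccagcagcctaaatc

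Astn1: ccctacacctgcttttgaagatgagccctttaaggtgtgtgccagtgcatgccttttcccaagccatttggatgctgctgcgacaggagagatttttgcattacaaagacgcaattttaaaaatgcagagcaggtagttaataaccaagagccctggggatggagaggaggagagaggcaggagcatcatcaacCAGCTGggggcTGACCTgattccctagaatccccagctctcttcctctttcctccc

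The motifs were AGGTCA, the half-site of retinoic acid and other nuclear receptors, GGCGCC, a BMP-responsive SMAD element, the E-boxes CAGCTG and CAGATG of bHLH factors, the homeodomain core TAATTA and the TATA box TATAAA. None of the 6 was found in the Brinp1 window or in any of the 3 Brinp3 windows. The Astn1 window held CAGCTG on the plus strand, starting 56 bases before the start, and AGGTCA on the minus strand, starting 45 bases before it. No 2 matches overlapped. Of the 32851 windows in the table, 14.0% held AGGTCA, 9.59% GGCGCC, 13.0% CAGCTG, 14.4% CAGATG, 4.84% TAATTA and 12.4% TATAAA. The Brinp1 window was rich in G and C (62%, with 11 CpG dinucleotides), and the Brinp3 window was poorer (44.8%, with 4), around a median of 52.4% and 6 over all windows. A match is a run of letters and not a binding site.

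The 5 genes lie at 3 places in the genome, and their neighbours were compared next. Brinp2 and Astn1 are next to each other on chromosome 1, and Astn2 and Brinp1 are on chromosome 4 with only Tlr4 between them among protein-coding genes outside Astn2. The arrangement is mirrored further out: the pregnancy-associated metalloprotease gene Pappa2 follows Astn1 and its relative Pappa follows Astn2, and the tenascin genes Tnr and Tnc come close behind. On chromosome 1 neither Brinp2 nor Astn1 passed, and of the 6 measured genes around them 0 passed in limma or with the ordinary linear model. At an unadjusted p under 0.05 there were 3, Pappa2 (-0.35 ± 0.12), Cop1 (0.25 ± 0.09) and Tnr (0.37 ± 0.14). Pappa2 passed in 3 alternatives, without D6/Zbtb20S replicate 3 (-0.49, adjusted p = 0.0234), with equal array medians and with array weights, and Tnr in 2, without wildtype replicate 3 (0.51, adjusted p = 0.0367) and with the replicate block (adjusted p = 0.0491). On chromosome 4 both Brinp1 and Astn2 were lower, but Astn2 was read near the floor and kept its call in 8 of 12 alternatives.

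Most neighbours did not pass. Of 20 measured neighbours that are not themselves BRINP or astrotactin genes, 1 was higher, 1 was lower and 18 did not pass, against 7.71% of 18193 genes called (4.06% higher and 3.64% lower). The gene that was higher was Tle1, a Groucho corepressor and the third measured gene on the far side of Brinp1. Its wildtype arrays read 6.67, 6.50 and 7.15 and its transgenic arrays 7.94, 8.23 and 8.27, so it was 2.59-fold higher (1.37 ± 0.16 SE, limma adjusted p = 0.000648), opposite to Brinp1 and of about the same size. Between Brinp1 and Tle1, Cdk5rap2, a centrosome protein gene (-0.16 ± 0.11), and Megf9 (0.09 ± 0.09) did not pass. Tle1 missed the threshold with the ordinary linear model (adjusted p = 0.0955).

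Trim32, a ubiquitin ligase gene that lies inside Astn2, was the neighbour that was lower. It read 8.33, 8.39 and 8.44 in wildtype and 7.994, 8.008 and 8.004 in transgenic tissue, 1.30-fold lower (-0.38 ± 0.07 SE, adjusted p = 0.0125), and the arrays did not overlap. Its call was lost when wildtype replicate 2 or transgenic replicate 1 was left out (adjusted p up to 0.0626). Tlr4, the innate immune receptor gene between Astn2 and Brinp1, was under the array median on every array (-0.13 ± 0.09). Around Brinp3 all 6 measured neighbours, 3 of them RGS genes (regulators of G protein signalling), were under the array median on every array. Rgs13 had the largest difference of these (-0.57 ± 0.16, adjusted p = 0.0603), and it passed without wildtype replicate 2 and with equal array medians (adjusted p up to 0.0377). Like Astn2, Rgs13 was read close to the floor, under the lower quartile of the array on all 6 arrays.

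**Figure D3:**
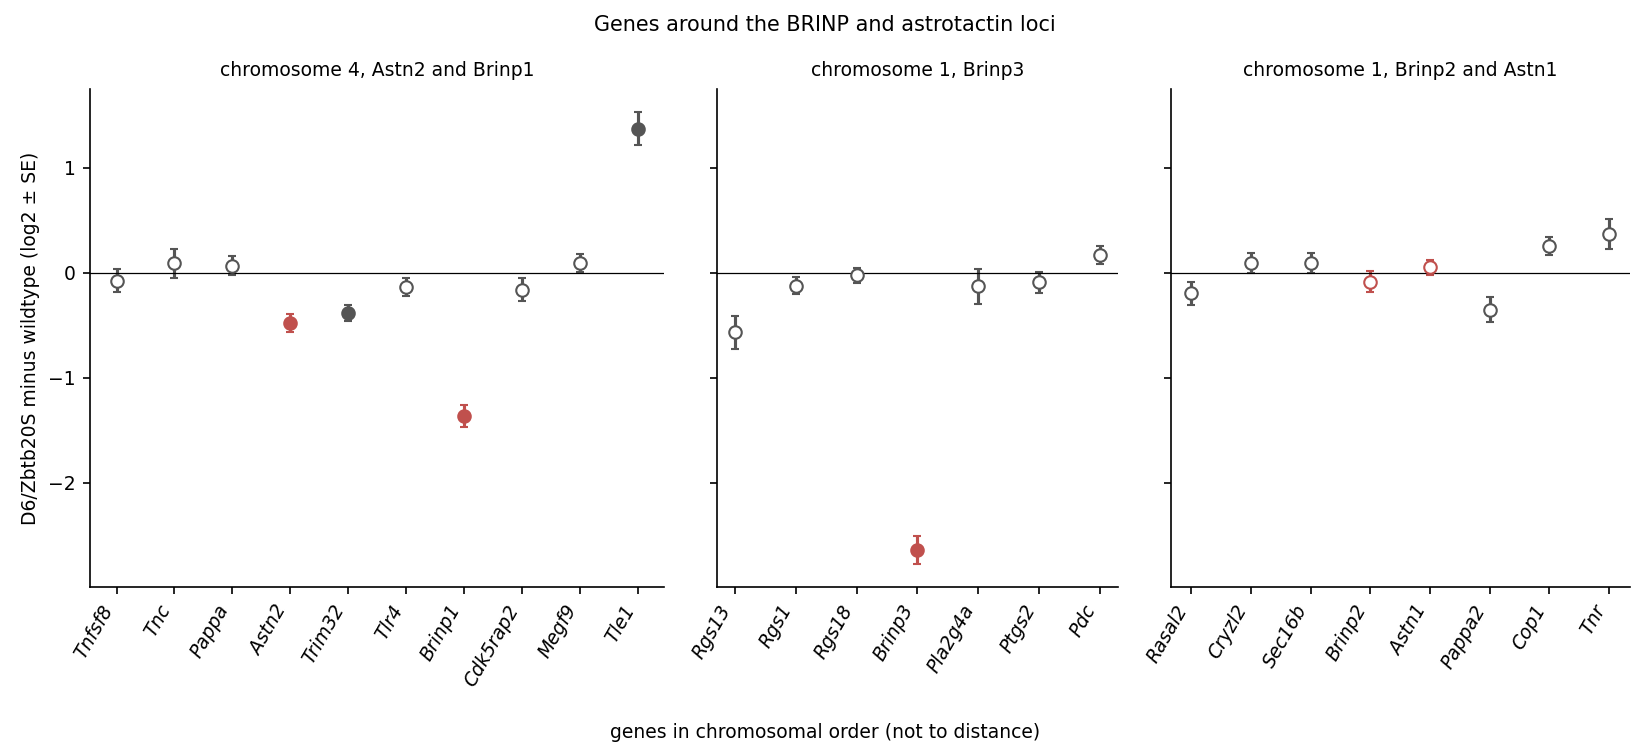
Difference between genotypes (vertical axis, log2, with the SE of the moderated fit) for the measured genes around each locus in chromosomal order (horizontal axis, not to distance), with BRINP and astrotactin genes in red and neighbours in grey. Filled points passed an adjusted p under 0.05 over 18193 genes. Brinp3 is at -2.64, while its 6 measured neighbours were under the array median on every array and so had little room to fall. Tle1 (1.37) is opposite to Brinp1 (-1.36).

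BMP and retinoic acid, the signals that give the BRINP genes their name, were examined as gene lists. Of 23 measured genes of the BMP pathway, 2 were higher, 2 lower and 19 did not pass, with a median of -0.03 beside -0.02 over all genes. Bmpr1b, a type I BMP receptor, read 4.10, 4.39 and 4.73 in wildtype and 6.38, 6.31 and 6.19 in transgenic tissue, 3.69-fold higher (1.88 ± 0.14, adjusted p = 4.7e-05). Neither of its other 2 probe sets passed (-0.002 and 0.23). Acvr1, another type I receptor, was 1.72-fold higher (0.78 ± 0.11, adjusted p = 0.00215), with 1 of its 2 other probe sets called the same way.

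Genes downstream of the receptors did not share a direction. Id2, an inhibitor of bHLH factors and a BMP target, read 10.5, 10.6 and 10.3 in wildtype and 9.34, 9.41 and 8.87 in transgenic tissue, 2.40-fold lower (-1.26 ± 0.14, adjusted p = 0.000436), and both of its other probe sets were called lower too. The signal transducer Smad1 was 1.29-fold lower (-0.36 ± 0.08, adjusted p = 0.0258). Its call was lost in 7 of 14 alternatives, among them the one that averages its 3 probe sets (adjusted p = 0.754). Id1 (-0.13), Id3 (-0.11) and Id4 (0.30), and all 5 measured BMP ligands, did not pass on the brightest probe set, which stood for each gene. Both other Id4 probe sets were called higher, however (0.67 each), and so was 1 of the 2 others of Smad4 (0.78) and of the receptor gene Bmpr2 (0.53). These 3 were among the 8 BMP genes not called that had further probe sets. Over all genes of that kind, another probe set was called for 6.7%, a share not matched for how many further probe sets a gene had.

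Of 17 measured genes of retinoic acid handling and response, 1 was higher, 1 lower and 15 did not pass, with a median of -0.08. The receptor gene Rxrg was 1.41-fold higher (0.49 ± 0.12, adjusted p = 0.0311), and Cyp26b1, which breaks retinoic acid down, was 1.27-fold lower (-0.34 ± 0.09, adjusted p = 0.0486). Rxrg missed the threshold in 5 of 14 alternatives and Cyp26b1 in 8 (adjusted p up to 0.211 and 0.167). The synthesising enzyme Aldh1a2 was at -0.19 ± 0.22 and the receptors Rara, Rarb and Rarg at 0.07, 0.15 and -0.21, none of which passed. Aldh1a3, another such enzyme, did not pass on its brightest probe set (-0.09), while 1 of its 2 others was called lower (-0.93). Of the 17, 6 were under the array median on every array.

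Genes of migration along glia, the process Astn1 serves, were examined next. Of 25 genes of glial-guided migration, 1 was higher, 0 were lower and 24 did not pass, beside 7.71% of all genes called, with a median of -0.003. At an unadjusted p under 0.05, 1 was lower and 2 higher, and with the ordinary linear model 0 passed. The one that was higher was the reelin receptor Lrp8 (0.34 ± 0.08, adjusted p = 0.028), which missed the threshold in 7 of 14 alternatives (adjusted p up to 0.139). Reln, the secreted signal itself (0.04), its adaptor Dab1 (0.12), Dcx (0.11) and Cdh2, the cadherin of neurons and glia (0.03), did not pass on the brightest probe set. Other probe sets were called higher for 2 of 4 in Dab1 (up to 1.24), 1 of 3 in Dcx (0.74) and all 3 in Cdk5r1, which encodes an activator of Cdk5 (0.55 to 0.83). The same held for 1 other probe set each of Fyn, Srgap2 and Vldlr (0.44, 0.87 and 0.55). In all, 6 of the 18 genes not called that had further probe sets had one called higher, and 0 had one called lower. Over all 8147 genes of that kind, another probe set was called for 6.7%. Higher calls led there too, for 461 genes against 87 with a lower one. A gene with more further probe sets has more that can be called, and these shares were not matched for that number. Of 6 measured genes reported as partners of astrotactin-2, 1 was higher. This was the synaptic adhesion gene Nlgn1, which read 4.86, 5.07 and 5.86 in wildtype and 6.80, 6.80 and 6.84 in transgenic tissue, 2.93-fold higher (1.55 ± 0.21, adjusted p = 0.00159). The other Nlgn1 probe set was at -0.03 and did not pass. Nlgn2, Nlgn3 and the potassium-chloride cotransporter gene Slc12a5 did not pass (-0.18, 0.07 and 0.21), and Olfm1 did not on its brightest probe set (0.34) but did on 1 of its 2 others (0.35).

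Of the other genes with a MACPF domain, 6 were measured and 1 was higher. It was Mpeg1, a macrophage gene, with 5.70, 5.63 and 5.59 in wildtype and 6.28, 6.14 and 6.26 in transgenic tissue (0.59 ± 0.08, adjusted p = 0.00156). The complement genes C6, C8a, C8b and C9 were under the array median on every array, and Prf1 was at 0.15. Of the 6 genes listed for the mirrored loci (Pappa, Pappa2, Tnc, Tnr, Trim32 and Tlr4), Trim32 alone passed in limma. In the same tissue 3 of 8 microglial markers were higher (Cx3cr1, Tyrobp and Ctss), against 4.06% of all genes. The other Cx3cr1 probe set was at -0.007 and did not pass. The summed linear signal of the 8 was 510 to 546 in wildtype and 668 to 785 in transgenic arrays. The part of microglia in the Mpeg1 value was not tested. Over all 6 lists, with 83 measured genes, 6 were higher and 4 lower (median -0.02), which is to be read against the 7.71% of all genes called.

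**Figure D4:**
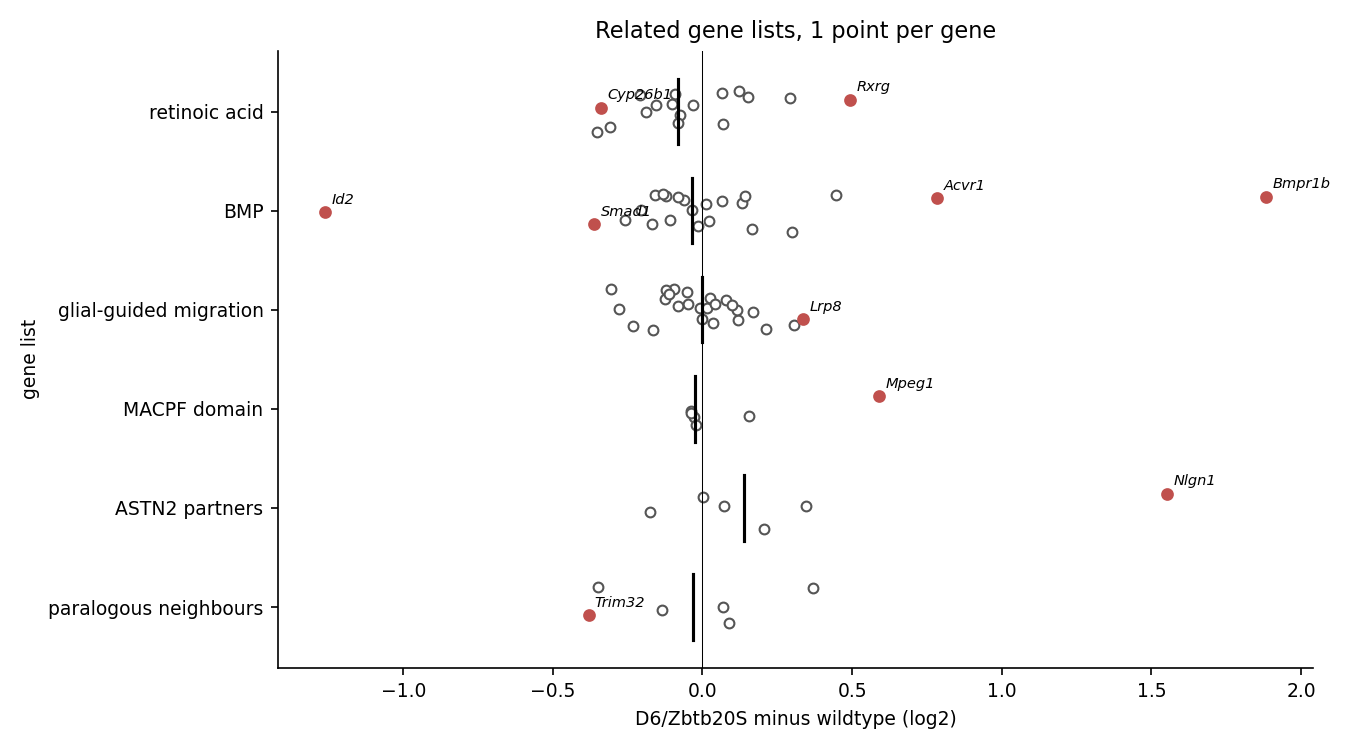
Difference between genotypes (horizontal axis, log2, D6/Zbtb20S minus wildtype) for each measured gene of the 6 related lists (vertical axis), with a line at the list's median. Filled points passed an adjusted p under 0.05 in limma over all genes and are named. Bmpr1b (1.88), Nlgn1 (1.55) and Id2 (-1.26) stand farthest from 0.

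Markers of other cells are given beside the BRINP values, since the tissue was dissected. Their counts are to be read against 7.71% of all genes called, 4.06% higher and 3.64% lower. Of 7 pyramidal neuron markers, 2 were higher (Neurod2 and Bcl11b) and 2 lower (Tbr1 and Slc17a6). The summed signal of all 7 was 2196 to 2503 in wildtype and 2670 to 3261 in transgenic arrays. Such a sum follows its brightest genes, here Neurod6, Bcl11b and Neurod2. The median difference of the 7 was -0.09, with 3 of them above 0. The other Slc17a6 probe set was at 0.11, and with the mean of probe sets the gene's difference went from -1.26 to -0.57 and its call was lost (adjusted p = 0.170). Of 9 GABAergic markers 1 was lower, Gad1 (-0.60 ± 0.10), with sums of 986 to 1044 and 817 to 860. Of 6 oligodendrocyte markers 4 were lower, with sums of 945 to 1121 and 666 to 744. Among these 4, neither other Cnp probe set passed (-0.37 and -0.10), while 3 of the 7 others of Mbp were called lower. The Cajal-Retzius list (6 genes) and the endothelial and mural list (6 genes) had 0 calls in limma and with the ordinary linear model (2 and 1 genes at an unadjusted p under 0.05), and their sums overlapped between genotypes. Pdgfrb of the latter list passed without wildtype replicate 3 (0.44, adjusted p = 0.0210) and, at 0.33, when arrays were weighted (adjusted p = 0.0408). Of 3 erythroid genes 0 passed in either fit, and 0 at an unadjusted p under 0.05. Of 5 intermediate progenitor markers, Neurog2 was higher and Eomes lower, and of 8 radial glia and astrocyte markers Sox2 was lower (-0.42 ± 0.11), with overlapping sums in both lists. The Sox2 call was lost in 6 of 14 alternatives (adjusted p of 0.0717 to 0.212), 4 of them without 1 array (wildtype replicate 2 or 3, D6/Zbtb20S replicate 2 or 3). The Neurog2 call was lost without D6/Zbtb20S replicate 1 (adjusted p = 0.0558) and that of Eomes without D6/Zbtb20S replicate 3 (adjusted p = 0.0534). Both were also lost with the ordinary linear model (adjusted p = 0.181 for Neurog2 and 0.203 for Eomes). Among the radial glia and astrocyte markers not called, 1 other probe set of Aqp4 was called higher (0.95). Markers under the array median on every array were Lhx1, Lhx5 and Ebf3 of Cajal-Retzius cells, Neurog1 of progenitors, the endothelial Pecam1, and Hba-a1 and Slc4a1 of red cells. The part of any of these cells in the Brinp1 and Brinp3 differences was not tested.

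The genes whose array profiles were most like those of the lower members were found by the root mean square (RMS) difference of gene-centred log2 values over the 6 arrays. For Brinp3 they were Myo5b, an unconventional myosin (RMS 0.18, 5.72-fold lower), Cntn5, a contactin adhesion gene (RMS 0.23, 4.97-fold lower), and Fosl2, an AP-1 factor gene (RMS 0.24, 7.20-fold lower). The other Fosl2 probe set was at -0.05 and did not pass, and 1 of the 2 others of Myo5b was called lower. For Brinp1 they were the adhesion G protein-coupled receptor gene Adgra1 (RMS 0.07, 2.71-fold lower), the oxysterol-binding protein gene Osbpl1a (RMS 0.07, 2.56-fold lower) and Tmem163 (RMS 0.08, 2.38-fold lower). For Astn2 they were Cdc25b, a cell cycle phosphatase gene, Glis3 and Mgat5b (RMS 0.03 for each, 1.36 to 1.40-fold lower). Likeness over 6 arrays in 2 groups follows mainly the size of the genotype difference.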

How the data were processed

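RNA of 6 pools was measured on Affymetrix 3' arrays. The deposited table holds 1 log2 value per probe set and array. The submitters' processing notes name RMA and limma without versions, and the scale was taken as log2 from its range. Centring of the arrays and the genome build are not given in the sources used here, and depth has no meaning for arrays, whose number limits the precision. Probe sets (45037 after leaving out 64 controls) were named through the platform annotation: 34945 had 1 symbol, 932 several and 9160 none. For each of the 18193 genes, the probe set brightest on average stood for the gene. Of the single symbols, 34741 matched a gene ID of RefSeq GRCm38.p6, used for names and gene order, and promoter sequences are RefSeq's from the same build (4 of the 5 genes matched).

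Differences are D6/Zbtb20S minus wildtype from limma 3.58.1 in R 4.3.3 (lmFit, eBayes, no covariates), with Benjamini-Hochberg adjustment over all probe sets (BRINP and astrotactin genes) or all genes (others), at a threshold of 0.05. The fit was also run on simulated data with independent noise for each gene, which cannot show an array that deviates as a whole. The outcome of that run is not given here. A p-value reflects only how these pools varied. The genes and lists were chosen with earlier results of these data known. Genes named are every BRINP and astrotactin probe set, up to 4 passing genes per list (or the 1 with the smallest p), the 3 nearest measured genes on each side, the 3 most alike genes and Zbtb20; others given with values were chosen after their values were seen. Motifs were also chosen then. Alternatives were the replicate number as a block, each array left out, an intensity trend, array weights, quantile normalization or equal medians, only bright probe sets (at least 3 arrays above their median), an ordinary linear model and, for genes, the mean of probe sets.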

Additional observations from a re-analysis of the deposited data

How the results depend on the processing

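The number of arrays and, for Astn2, signal near the floor limit these values. Brinp3 passed in all 13 alternatives, with differences from -2.80 to -2.53, and Brinp1 in 12 of 13, with -1.36 in the ordinary linear model that it did not pass. Leaving out 1 array gave Astn2 -0.52 to -0.42, with its call lost in 3 of the 6 fits, and the ordinary linear model, at -0.48, lost it too. Astn2 could not be fitted among bright probe sets. Brinp2 ranged from -0.15 to 0.027 when 1 array was left out. Probe sets of the family past the threshold numbered 1 with the ordinary linear model and 2 to 3 without 1 array.

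Over the whole array, 2484 probe sets and 1402 genes passed. Without 1 array these were 1162 to 2881 and 777 to 1538, with array weights 4710 and 2707, and with the ordinary linear model 200 and 267. Wildtype replicate 2 (1162 and 777 when left out) and D6/Zbtb20S replicate 1 (1341 and 837) moved both counts by over 1.5 times, and D6/Zbtb20S replicate 2 that of probe sets (1306). Related list genes numbered 10, against 5 to 12 without 1 array, 20 with array weights, 3 with the ordinary linear model and 16 with the mean of probe sets. The ordinary linear model also lost the calls of Acvr1, Id2, Nlgn1, Gad1, Neurod2, Bcl11b and Slc17a6. Those of the oligodendrocyte markers Olig2 and Cnp and the microglial markers Cx3cr1, Tyrobp and Ctss were lost with it too. Adjusted p in that model ran from 0.0529 for Bcl11b to 0.174 for Cx3cr1. Signs turned only among genes that did not pass: with the mean of probe sets for Cryzl2 (-0.017), Pappa (-0.052) and Tnc (-0.022), with array weights for Ptgs2 (0.012), with quantile normalization for Rgs18 (0.028), and without 1 array for Pla2g4a (-0.28 to 0.077), Tnfsf8 (-0.16 to 0.044) and Tnc (-0.029 to 0.22). In the replicate block fit 3 family probe sets, 3304 probe sets and 1343 genes passed. Deviations of same-numbered arrays from their group means had r of -0.03, 0.18 and 0.21 over probe sets. Arrays of different numbers were not compared in this way, so these values cannot decide if the numbers are pairs. The main fit did not take them as pairs.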

Other observations

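In the deposited values, Brinp1 and Brinp3 ordered the arrays in the same way within each genotype. How many other probe sets share this order was not counted. Among wildtype arrays replicate 2 was the highest and replicate 1 the lowest for both genes, and among transgenic arrays replicate 3 was the highest and replicate 2 the lowest. The order held after the array median was taken off for Brinp3, whose values were then 2.06, 2.37 and 2.24 in wildtype and -0.41, -0.61 and -0.28 in transgenic replicates 1, 2 and 3. For Brinp1 they were 3.19, 3.36 and 3.18 in wildtype, where replicates 1 and 3 change places by 0.01, and 1.83, 1.77 and 1.98 in transgenic tissue. The actin control's signal at the 3' end less that at the 5' end was 0.53, 0.88 and 1.31 in wildtype and 0.80, 0.91 and 0.83 in transgenic replicates 1, 2 and 3. The same value of the Gapdh control was -0.33, -0.03 and 0.30 in wildtype and -0.002, -0.01 and -0.02 in transgenic replicates. The part of RNA quality in the order of the arrays was not tested.

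The Astn2 window before the start held 19 CpG dinucleotides and 66.8% G and C, and the Astn1 window held 2 and 50.4%. The Astn2 values were the highest among the family members with a window, and Brinp2 had none. The other 2 Brinp3 starts had 3 and 8 CpG dinucleotides, around a median of 6 over all windows. None of the 6 motifs was found in the Astn2 window.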
